A study of Mus musculus with 4 samples.

Results

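DNA repair genes were examined as a set of 57 named members among 21887 RefSeq protein-coding genes on GRCm38, and their ends were compared with the positions bound by p53 and PPAR-alpha in mouse thymus. All 57 were found by symbol. They were divided by repair route or role, in a grouping made for this report: 4 genes of mismatch repair, 11 of nucleotide excision, 7 of base excision and single-strand break repair, 7 of end joining, 14 of homologous and crosslink repair, 7 of damage signalling, 6 of translesion synthesis, and the nucleotide supply gene Rrm2b. Chromatin immunoprecipitation with sequencing gave 2 libraries for p53 and 1 for PPAR-alpha, the lipid-sensing receptor that switches on genes of fatty acid breakdown. A library of input DNA had no list of its own and is not analysed here. Every library came from whole thymus of mice with the germline genotype p53 AD/AD, whose p53 is dimeric, at 4 weeks of age, and the tissue was described as basal. Reads were 50 nt long for p53 and input but 75 nt for PPAR-alpha, so antibody and read length change together. No library of another p53 genotype was among them, so every count below describes p53 AD/AD thymus alone.

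Cells repair DNA along several routes. Mismatch repair corrects copying errors, excision repair cuts out damaged bases or bulky lesions, end joining religates broken ends, homologous recombination copies an intact sister, and translesion polymerases copy past lesions that stall replication. In the thymus, end joining also closes the breaks that the RAG recombinase makes in antigen receptor genes. p53 is activated by this damage, and Xpc, Ddb2, Polh, Polk and Rrm2b are textbook p53 targets among the members.

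Each peak that the authors called is represented by its summit, where reads piled up highest, and by a score taken here to be a −log10 significance. The list of p53 replicate 1 had 3608 summits, that of replicate 2 had 4767 and that of PPAR-alpha had 4070. Their median scores were 3.99, 3.62 and 4.70. Read depths are unknown here. The labels do not say that the p53 libraries came from separate mice, and in whole tissue stronger occupancy and more occupied cells cannot be told apart. Of all protein-coding genes, 24.7% had a summit within 5 kb in at least 1 list. So did 15 of 15 thymocyte markers. Of other markers, 1 of 7 B cell, 2 of 6 myeloid, 1 of 6 thymic epithelial and 2 of 4 adipocyte genes did. The part of these other cells in the counts below was not tested.

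The strongest p53 summits at repair genes lay close to one kind of short sequence, which is therefore shown first. Its letters are GCGC, any base and TGCGC, the recognition sequence of NRF1, a promoter-binding activator of nuclear genes that include those of mitochondrial respiration. The 30 bases around the match that lies nearest a summit follow for 5 members, from RefSeq on GRCm38, 5′ to 3′ on the strand of the gene, with the matched letters in capitals. NRF1 was singled out among 12 motifs searched, and Rnf8 added to the members shown, after their values were seen. Xpa, with the next highest score in its promoter window after Palb2, held no match and is not shown.
Lig4: gcacccctatGCGCATGCGCaggacactgg
Polh: agccgccacgGCGCATGCGCgcgcggaagt
Sprtn: cgctcgcactGCGCCTGCGCccggggcgga
Palb2: gtctccagctGCGCGTGCGCagagcgaaca
Rnf8: gcctcccgctGCGCACGCGCactgcccgcc
They lie at chr8:9977715-9977744 (minus strand), chr17:46202716-46202745 (minus), chr8:124897792-124897821 (plus), chr7:122132955-122132984 (minus) and chr17:29614774-29614803 (plus). From the middle of the match, the summits of p53 replicate 1, p53 replicate 2 and PPAR-alpha were 8, 11 and 1 bp away at Lig4. At Polh they were 7, 5 and 39 bp away, and at Sprtn 5, 66 and 4 bp. The only summit at Palb2, from p53 replicate 2, was 11 bp away. At Rnf8 the nearest summit of replicate 2 was 6 bp away and that of replicate 1 was 95 bp away. Atm also held the letters and had a summit within 1 kb but is not shown. Its summit, from p53 replicate 2, was 300 bp from the nearer match.

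How many repair genes had a summit? Within 1 kb of either gene end, 12 of 57 members did in p53 replicate 1 (21.1%, exact Clopper-Pearson 95% interval 11.4 to 33.9%), where 9.21% of all protein-coding genes did. In p53 replicate 2 there were 15 (26.3%, 15.5 to 39.7%), beside 11.9% of all genes, and in PPAR-alpha 9 (15.8%, 7.48 to 27.9%), beside 8.8%. Within 5 kb there were 14 (24.6%, 14.1 to 37.8%), 18 (31.6%, 19.9 to 45.2%) and 14 (24.6%, 14.1 to 37.8%), beside 12.9%, 16.4% and 12.3% of all genes. The member share was thus above the share of all genes in each list, and the lower bound for PPAR-alpha at 1 kb was below it. The intervals cover counting error only, genes are not replicates, and no test of the list was made. Members and lists were also chosen with earlier results of these data known, and the intervals make no allowance for that choice.

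**Figure D1:**
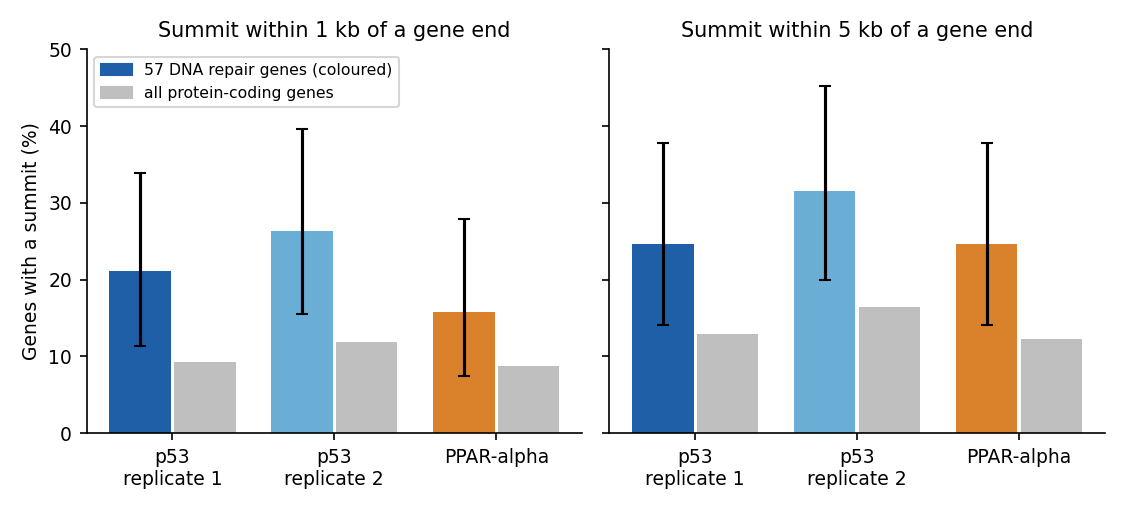
Share of genes (%) with a summit within 1 kb (left) or 5 kb (right) of either gene end in each list, for the 57 repair genes (coloured bars, with exact 95% intervals) and for all 21887 protein-coding genes (grey bars). Every coloured bar stands above its grey neighbour, from 15.8% against 8.8% for PPAR-alpha within 1 kb to 31.6% against 16.4% for p53 replicate 2 within 5 kb.

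Relative to all genes, the p53 share of members was higher still among summits that scored 10 or more. Such a summit lay within 1 kb of 3 members in p53 replicate 1 (5.26%, 1.10 to 14.6%, beside 0.512% of all genes), namely Lig4, Polh and Sprtn. In replicate 2 it lay at the same 3 and Palb2 (7.02%, 1.95 to 17.0%, beside 0.516%). In PPAR-alpha it lay at Msh6, Polh and Sprtn (5.26%, 1.10 to 14.6%, beside 1.37%), an interval that holds the share of all genes. Within 5 kb the p53 members stayed at 3 and 4, beside 0.726% and 0.8% of all genes, and PPAR-alpha gained Ercc1 for 4 members, beside 2.03%. All of these p53 summits had a neighbouring gene close by. In replicates 1 and 2 Abhd13 ended 20 and 1 bp from those of Lig4, Xpo5 88 and 76 bp from those of Polh, and Exoc8 97 and 36 bp from those of Sprtn. Dctn5 ended 83 bp from that of Palb2. With the nearest gene only, Lig4 left both p53 lists and Polh left replicate 2.

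Within 5 kb, 14 of the 28 members with a summit had one in a single list, 10 in exactly 2 lists and 4 in all 3. Both p53 replicates had a summit within 5 kb of Msh6, Parp1, Lig4, Rnf8, Polh and Sprtn, which are 6 members (10.5%, 3.96 to 21.5%), beside 7.96% of all genes. The interval holds the share of all genes. The same 6 had one within 1 kb in each replicate, where all genes gave 5.07%, also inside the interval. All 3 lists had a summit within 5 kb of 4 members, Msh6, Lig4, Polh and Sprtn (7.02%, 1.95 to 17.0%, beside 4.87% of all genes). Within 1 kb the same 4 had one in all 3 lists, beside 2.8% of all genes. At these 4 the summits of the 3 lists also lay within 100 bp of each other, beside 1.04% of all genes, and within 500 bp, beside 3.23%. The interval of 1.95 to 17.0% holds 4.87%, 2.8% and 3.23%, but not 1.04%. The p53 summits lay within 100 bp of each other at 5 members (these 4 and Parp1, interval 2.91 to 19.3%), beside 3.26%. Within 500 bp they did at 6 (3.96 to 21.5%), beside 6.33%. Both intervals hold the share of all genes. At least 1 list had a summit within 5 kb of 28 members (49.1%, 35.6 to 62.7%), beside 24.7% of all genes, and within 1 kb of 23 (40.4%, 27.6 to 54.2%), beside 19.0%. Whether the input library was the control for all 3 lists is not stated.

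**Figure D2:**
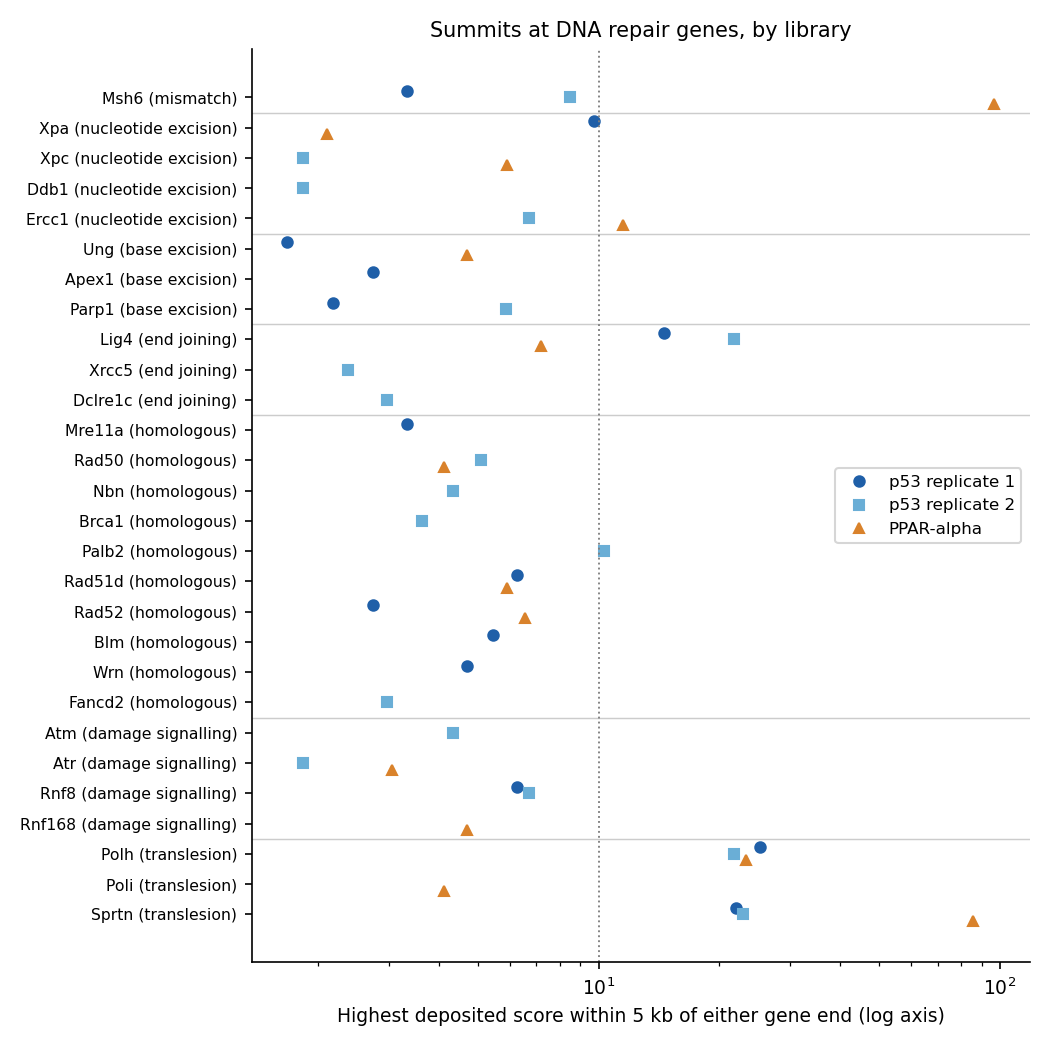
Highest deposited score (log axis) within 5 kb of either gene end for the 28 members with a summit in any list, grouped by repair route, with 1 symbol per library and a dotted line at a score of 10. Lig4, Polh and Sprtn stand right of the line in both p53 replicates, Msh6 and Sprtn have the highest PPAR-alpha scores (96.9 and 85.5), and most other symbols lie under 10.

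The translesion group, in which Sprtn was counted, held the highest p53 score of the set in each replicate. In replicate 2 Lig4 had the same score as Polh. Polh encodes DNA polymerase eta, which copies past ultraviolet lesions and is a textbook p53 target (chromosome 17, 46171355 to 46202641, minus strand). Its summits scored 25.3 in p53 replicate 1, 21.8 in replicate 2 and 23.4 in PPAR-alpha, and ranked 57th of 3608, 73rd of 4767 and 174th of 4070. They lay 82, 94 and 128 bp upstream of the gene, at 46202723, 46202735 and 46202769, in the gap before Xpo5, which encodes a nuclear export receptor for microRNA precursors. The gap was 169 bases long and is shown whole (chr17:46202642-46202810, minus strand), since all 3 summits fall in it. Capitals mark 3 matches to the NRF1 letters, 1 to TGACG and 1 to GGGCGG.
Polh: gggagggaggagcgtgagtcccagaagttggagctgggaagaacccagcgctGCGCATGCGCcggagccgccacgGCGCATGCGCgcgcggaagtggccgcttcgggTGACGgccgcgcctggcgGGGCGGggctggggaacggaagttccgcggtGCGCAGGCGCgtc
The summit in Polh's gap lay nearer to Xpo5 than to Polh in p53 replicate 2 (76 bp) and in PPAR-alpha (42 bp), so it cannot be assigned to one of the genes.

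Sprtn encodes the protease that degrades proteins crosslinked to DNA (chromosome 8, 124897771 to 124906161). It scored 22.0 and 22.9 in p53 replicates 1 and 2 (ranks 63 and 67) and 85.5 in PPAR-alpha (rank 44). The 3 summits lay within 32 bp of the gene boundary, those of p53 replicate 1 and PPAR-alpha 1 bp apart. The end of Exoc8, a gene of the exocyst, lay 36 to 98 bp from them. With Poli, 3 of 6 translesion members had a summit within 5 kb (exact interval 11.8 to 88.2%, beside 24.7% of all genes). The other translesion polymerase genes had weak summits or none. Poli had a PPAR-alpha summit of 4.13, 4280 bp inside the gene. Polk, Rev1 and Rev3l had none within 5 kb in any list. The nearest summit to Polk, a textbook p53 target, lay 92490 and 92499 bp away in the p53 replicates and 414038 bp away in PPAR-alpha.

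Among end joining genes, Lig4 stood apart. It encodes the ligase that seals broken ends, antigen receptor breaks included (chromosome 8, 9970020 to 9977680, minus strand). Its p53 summits scored 14.6 and 21.8 in replicates 1 and 2 (ranks 96 and 73), and the PPAR-alpha summit at the same place had rank 1101, with a score under those of both p53 summits. These summits lay 57, 38 and 50 bp upstream of the gene, and 20, 1 and 13 bp from the end of Abhd13, a hydrolase gene that was in each list the nearer gene. PPAR-alpha had a second Lig4 summit of 5.30 at 1487 bp inside the gene, 118 bp past another RefSeq start of Lig4. Lig4 and Msh6 were thus opposite in order: Lig4 scored higher in both p53 lists than in PPAR-alpha, and Msh6 far higher in PPAR-alpha. Scores from lists of different libraries and read lengths are not on a common scale, and this order was not tested.

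Summits at the other end joining genes were weak. Xrcc5, which encodes Ku80, had a summit of 2.37 in p53 replicate 2, 10 bp from its start. Dclre1c, which encodes the hairpin-opening nuclease Artemis, had one of 2.97 in replicate 2, 1031 bp beyond the gene and 256 bp from Suv39h2. Xrcc4, Prkdc and Nhej1, which encode the ligase partner, the catalytic subunit of DNA-dependent protein kinase and XLF, had none within 5 kb in any list. In all, 3 of 7 end joining members had a summit within 5 kb (42.9%, 9.90 to 81.6%, beside 24.7% of all genes), and 1 did without p53 replicate 2.

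Xrcc6, which encodes Ku70, counted as having no summit at its ends, yet all 3 lists had summits inside it. Its annotated boundary, 81987833 to 82040085 on chromosome 15, begins far upstream of its RefSeq promoter window. In p53 replicate 1 a summit of 6.24 lay 252 bp downstream of the start in that window, and in PPAR-alpha one of 4.13 lay 355 bp upstream of it. The gene Desi1 ended 363 and 244 bp from them. Deeper in the gene, 11876, 11534 and 11642 bp from that start, lay summits of 3.34 in p53 replicate 1, 8.48 in replicate 2 and 13.8 in PPAR-alpha. These were 108 to 342 bp apart.

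In mismatch repair, Msh6 was the only one of 4 members with a summit in 5 kb (25.0%, exact interval 0.631 to 80.6%, beside 24.7% of all genes). It had one in every list. Msh6 encodes a subunit of the heterodimer that recognises single mispaired bases (chromosome 17, 87975050 to 87990892, plus strand). It scored 96.9 in PPAR-alpha, at rank 40 the highest value of the set, 8.48 in p53 replicate 2 (rank 249) and 3.34 in replicate 1, a score that 633 summits of that list share. The summits lay 302, 289 and 342 bp upstream of the start, within 53 bp of each other, and no other protein-coding gene ended within 1 kb. A further summit of 3.34 in replicate 1 lay 958 bp inside the gene. Msh3, Mlh3 and Pms2, for the partner that recognises loops and for a pair of endonuclease subunits, had no summit within 5 kb, and the nearest lay 41725 bp or more away.

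The 250 bases before the Msh6 start are shown as a contrast with Polh (chr17:87974800-87975049, plus strand). Capitals mark 5 GC boxes (GGGCGG or its complement) and 1 CCAAT box in reverse.
Msh6: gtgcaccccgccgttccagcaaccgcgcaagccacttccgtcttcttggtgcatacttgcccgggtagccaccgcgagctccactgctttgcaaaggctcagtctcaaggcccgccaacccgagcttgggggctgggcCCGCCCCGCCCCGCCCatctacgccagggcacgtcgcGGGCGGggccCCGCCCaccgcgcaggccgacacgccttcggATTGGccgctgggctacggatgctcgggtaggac
This stretch holds no match to the NRF1 letters. The 3 Msh6 summits lay just beyond its upstream end, outside the bases searched, so nothing is known of the letters under them. Msh6 was added to the printed promoters after its values were seen.

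In nucleotide excision repair 4 of 11 members had a summit within 5 kb (36.4%, exact interval 10.9 to 69.2%). The interval holds the 24.7% of all genes. None had one in both p53 replicates, beside 7.96% of all genes, a share at which 11 members can easily show none. Xpa, which encodes a damage verification protein, had the strongest at its own start, 9.72 in p53 replicate 1 at 68 bp inside the gene (rank 195) and 2.11 in PPAR-alpha at 200 bp. Replicate 2 had none nearer than 36611 bp. Xpc encodes the damage sensor of global genome repair, a textbook p53 target. It had a summit of 1.83 in p53 replicate 2, 551 bp from its end, and one of 5.91 in PPAR-alpha at 1025 bp, which were 474 bp apart. Replicate 1 had none within 2587576 bp. The score of 1.83 was tied among 578 summits of replicate 2. Ddb1, for a subunit of the ultraviolet damage sensor, had a summit of that same score in replicate 2, 49 bp inside its start and 135 bp from Tkfc.

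The highest value near an excision gene belonged by position to its neighbours. The PPAR-alpha summit of 11.5 lay 3053 bp beyond Ercc1, for the partner of the XPF nuclease, but 94 bp from Cd3eap and 147 bp from Ppp1r13l. The p53 replicate 2 summit of 6.72, 3709 bp from Ercc1, lay 509 bp from Ppp1r13l. Ddb2, a textbook p53 target that encodes the other sensor subunit, had a p53 replicate 1 summit of 5.45 inside the gene, 5491 bp from its end and so just outside the window, and nearer to Acp2 (2938 bp). Ercc2, Ercc3, Ercc4, Ercc5, Ercc6 and Ercc8 had none within 5 kb in any list.

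In base excision repair 3 of 7 members had a summit within 5 kb (42.9%, 9.90 to 81.6%), an interval that also holds the 24.7% of all genes. Parp1, the sensor of strand breaks, was the only one with summits in both p53 replicates. They scored 2.18 in replicate 1 and 5.88 in replicate 2, at 243 and 162 bp inside the start and 81 bp apart, and PPAR-alpha had none within 202893 bp. Apex1, for the endonuclease that cuts at abasic sites, had one of 2.74 in replicate 1, 106 bp inside its start and 162 bp from Osgep. Ung, for uracil glycosylase, had one of 1.68 in p53 replicate 1 at 1200 bp and one of 4.70 in PPAR-alpha at 493 bp, both nearer to Alkbh2, a gene of alkylation repair. Ogg1, Xrcc1, Lig1 and Lig3 had none at their ends. Lig1, for the replicative ligase, had a PPAR-alpha summit of 5.91 inside the gene, 8506 bp from its end.

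In homologous and crosslink repair 10 of 14 members had a summit within 5 kb in at least 1 list (71.4%, exact interval 41.9 to 91.6%), beside 24.7% of all genes. The routes were not tested against each other. None of the 14 was in both p53 replicates, where 7.96% of all genes were. At that share so few members can easily show none. Of the 10, 7 were in a single list, and the count was 7 without p53 replicate 1 and 6 without replicate 2. The share was above that of every other route with all lists, but not when either p53 replicate was left out: 4 of 7 damage signalling members had a summit without replicate 1, and 3 of 6 translesion members without replicate 2. Palb2, which brings BRCA2 to breaks, had the strongest, 10.3 in p53 replicate 2 (rank 171), 22 bp inside the gene and 83 bp from Dctn5. The genes of the end-resecting complex were split between lists. Mre11a had 3.34 in p53 replicate 1 at 160 bp, and Nbn had 4.33 in replicate 2 at 438 bp. Rad50 had 5.08 in p53 replicate 2 at 143 bp and 4.13 in PPAR-alpha at 402 bp. Ankrd49 ended 241 bp from the Mre11a summit.

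The RecQ helicase genes Blm and Wrn had summits of 5.45 and 4.70 in p53 replicate 1, at 149 and 281 bp. Wrn shared its summit with Purg (357 bp). Brca1 had 3.62 in replicate 2 at 235 bp upstream, nearer to Nbr1 (83 bp), and Fancd2, the clamp that is ubiquitinated at crosslinks, had 2.97 in replicate 2 at 64 bp, beside Emc3 (66 bp). Rad51d had 6.24 in replicate 1 at 133 bp inside one end. Its PPAR-alpha summit of 5.91 lay at the other end, 909 bp outside the gene, and was nearest to Rffl. Rad52, for a strand annealing protein, had 2.74 in replicate 1 at 1175 bp and 6.55 in PPAR-alpha at 4056 bp, which were 15874 bp apart. Brca2, Rad51c, Rad54l and Fanca had none within 5 kb.

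In damage signalling 4 of 7 members had a summit within 5 kb (57.1%, 18.4 to 90.1%, beside 24.7% of all genes, which lies inside the interval). Rnf8, a ubiquitin ligase that marks chromatin beside breaks, had summits of 6.24 in p53 replicate 1 and 6.72 in replicate 2, at 95 bp upstream of its start and 6 bp inside it. They were just over 100 bp apart, and PPAR-alpha had none within 52098 bp. Replicate 2 had a second one of 1.83 at 416 bp. Rnf168, the ligase that acts after Rnf8, had 4.70 in PPAR-alpha alone, at 106 bp. Atm, the kinase that signals double-strand breaks, had 4.33 in replicate 2 at 389 bp, in a position it shared with Npat (450 bp). Summits of 1.83 in p53 replicate 2 and 3.06 in PPAR-alpha lay 1634 and 1528 bp beyond Atr, the kinase of stalled replication, but next to Xrn1 (5 bp in PPAR-alpha). Chek1, Chek2 and Trp53bp1 had none within 5 kb, nor did Rrm2b, a ribonucleotide reductase subunit and textbook p53 target, whose nearest summit in any list was 321638 bp away.

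**Figure D3:**
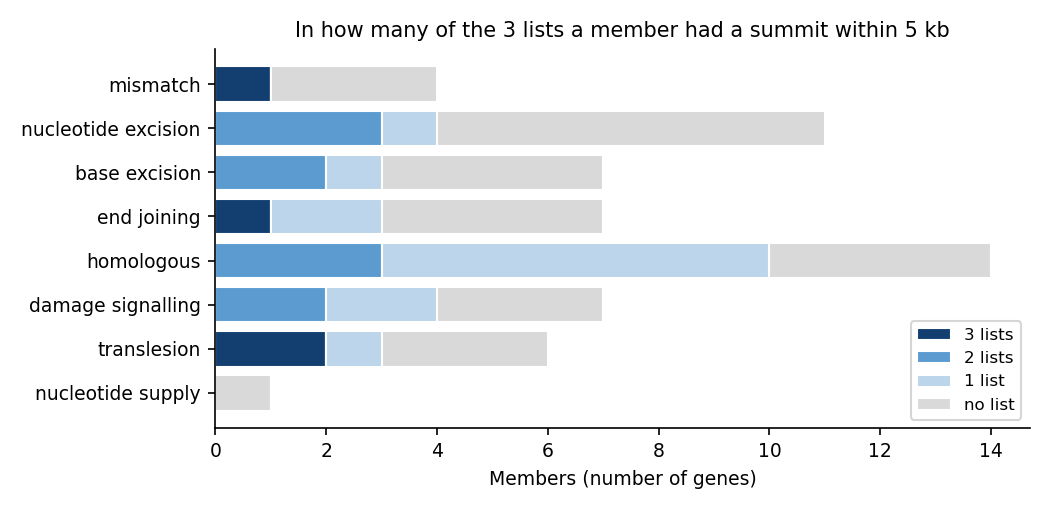
Number of members in each repair route with a summit within 5 kb in 3, 2, 1 or none of the lists (dark to pale). Homologous repair has the most members with a summit (10 of 14) and none in all 3 lists, where 4.87% of all genes are. At that share 14 members can easily show none. The 4 members in all 3 lists belong to mismatch repair (1), end joining (1) and translesion synthesis (2).

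Member summits gathered at gene starts. In all there were 49 pairs of a member and a summit within 5 kb, of which 38 lay within 1 kb. Of these 38, 30 belonged to members with a RefSeq promoter window, which gives the strand, and all 30 lay at the start end rather than the far end, at a median of 106 bp from it. This is the pattern of all genes, since 1570 of 1652 genes with a window and a summit within 1 kb had it at the start in p53 replicate 1, 95.6% in replicate 2 and 93.2% in PPAR-alpha. Another protein-coding gene ended within 1 kb of the summit in 20 of the 38 cases (6 of 13, 9 of 16 and 5 of 9 in the 3 lists), and the neighbour was the nearer gene in 8. Over all summits at gene ends, each counted once, the shares with a second coding gene were 19.1%, 19.3% and 19.8%. The member cases are instead pairs of a gene and a summit. Counted as such pairs, the shares over all genes would be higher and were not computed. Of the 11 pairs between 1 and 5 kb, 6 were nearer to another gene. No member summit lay in a dense run of summits.

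Summits of different lists lay closest at the 4 members shared by all lists. At Polh, Lig4 and Sprtn the closest summits of any pair of lists were 1 to 62 bp apart. At the other members seen in more than 1 list they were 13 to 53 bp apart at Msh6 and 81 bp at Parp1, then just over 100 bp at Rnf8, 106 at Atr, 132 at Xpa, 259 at Rad50, 474 at Xpc, 656 at Ercc1 and 707 at Ung. The lower of both scores was between 1.68 and 6.72 at these last 7. The 2 members beyond that, Rad51d and Rad52, had their summits at different places of the gene.

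Which letters did the promoters share? Windows of 300 bases, from 250 before to 50 after a RefSeq start, were available for 45 members (52 windows), and 12 motifs were searched on both strands. The NRF1 letters were in 28.8% of the member windows and in 6.38% of the 21263 windows of protein-coding genes. GGGCGG was in 73.1% against 46.2%, TGACG in 40.4% against 23.6%, CCGGAA in 32.7% against 18.7%, CCAAT in 48.1% against 38.2%, CACGTG in 15.4% against 7.84% and TTTCCCGC in 9.62% against 1.41%. ATGGCGG (3.85% against 5.25%), TTTGGCGC (1.92% against 0.635%) and TGTGGT (13.5% against 15.0%) differed less or were in few windows. The p53 response element, searched as a single decamer, was in 3.85% of member windows, those of Fanca and Polk, neither of which had a summit within 5 kb, and in 7.37% of all windows. The PPAR response element, a repeat of AGGTCA spaced by any base, was in no member window and in 0.047% of all windows. Member windows were richer in G and C, with a median of 59.2% against 56.3%, and some windows of neighbouring genes overlap.

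The NRF1 letters were in windows of 13 members, and 6 of these had a summit within 1 kb: Lig4, Palb2, Atm, Rnf8, Polh and Sprtn. All 6 had one in p53 replicate 2, 4 in replicate 1 and 3 in PPAR-alpha. Among all 1254 genes with the letters, 36.0% had one in p53 replicate 2, 27.0% in replicate 1 and 22.2% in PPAR-alpha. For summits of any score, the members' counts were thus near those of any gene with the letters. Of the 32 members without the letters, 11 had a summit in any list, 6 in p53 replicate 1, 5 in replicate 2 and 4 in PPAR-alpha, and of all 16238 genes without them 8.09%, 10.4% and 8.12% did. The 4 members with a p53 score of 10 or more, Lig4, Palb2, Polh and Sprtn, all held the letters, and the highest p53 score at a member without them was 9.72, at Xpa. At such scores the members' counts were not near those of all genes with the letters. Within 1 kb, 3 of the 13 members had such a summit in p53 replicate 1 and 4 in replicate 2, beside 3.35% and 4.39% of the 1254 genes. In PPAR-alpha, Polh and Sprtn had one, beside 4.23%. This difference was not tested. The letters also occurred without a summit: Msh3, Mlh3, Ercc2, Ercc4, Ercc6, Lig3 and Rev1 held them and had no summit within 1 kb.

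**Figure D4:**
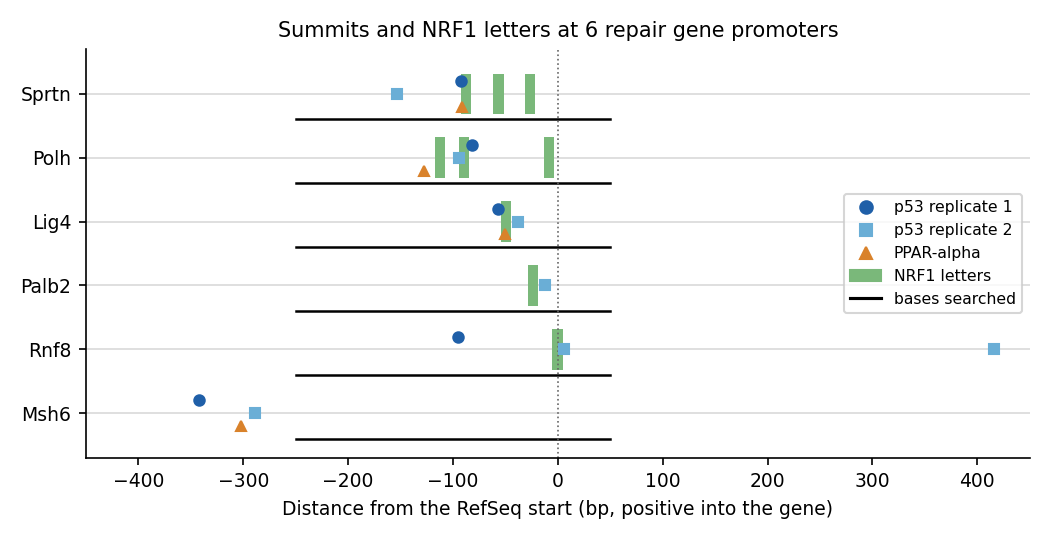
Distance in bp from the RefSeq start, positive into the gene, of summits (symbols by library) and of NRF1 letters (green blocks) at 6 members, with the searched bases as a black line. At Sprtn, Polh, Lig4, Palb2 and Rnf8 at least 1 p53 summit lies 5 to 11 bp from the middle of a match. The Msh6 summits lie 289 to 342 bp upstream, outside the searched bases. Atm, where the p53 replicate 2 summit lies 300 bp from the nearer match, is not drawn.

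Promoter windows of genes other than the members were searched after the pattern at the members had been noticed, with score bins and a GC band chosen then too. The NRF1 letters were in 5.48% of their windows without a p53 replicate 1 summit. They were in 24 of 120 windows whose highest summit scored under 3, and in 29.3%, 44.4% and 61.3% at 3 to 5, 5 to 10 and 10 or more (38 of 62 in the last, exact interval 48.1 to 73.4%). In p53 replicate 2 the shares were 5.27% without a summit, then 19.4%, 25.7%, 40.6% and 66.7% (50 of 75, 54.8 to 77.1%). In PPAR-alpha they were 5.78% without a summit, then 27.7%, 22.4%, 26.2% and 23.8% (38 of 160, 17.4 to 31.1%), with no such climb. Windows with summits were richer in G and C, with a median of 62.0% in either p53 list and 62.3% in PPAR-alpha. Among windows with 60 to 70% G or C, members included, the share was 9.83% without a p53 replicate 1 summit and 63.6% at scores of 10 or more, and 9.63% and 67.5% in replicate 2. In PPAR-alpha it was 10.4% without a summit, then 32.4%, 29.6%, 41.8% and 21.6% from the lowest to the highest scores. The p53 decamer was in 5.18% of all windows with a summit in p53 replicate 1 and in 5.35% in replicate 2, against 7.44% and 7.46% of those without. At scores of 10 or more it was in 3.08% (2 of 65) in replicate 1 but in 11.4% (9 of 79) in replicate 2. This is a match of letters within 300 bases; binding of NRF1 was not measured.

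**Figure D5:**
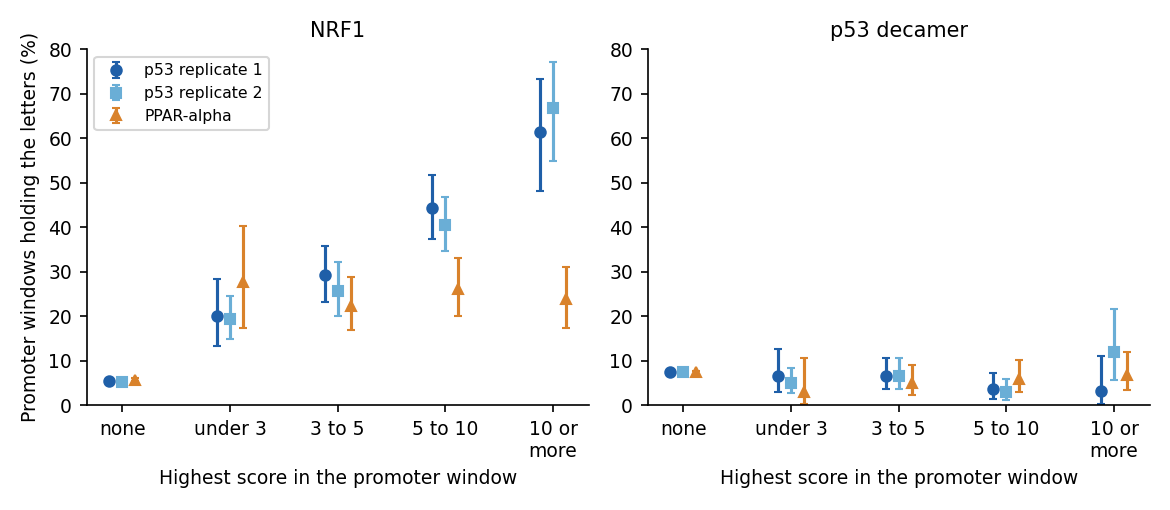
Share of promoter windows (%) of genes other than the members that hold the NRF1 letters (left) or the p53 decamer (right), by the highest score of a summit in the window, with exact 95% intervals. The NRF1 share climbs with score in both p53 lists, from 24 of 120 and 19.4% under 3 to 61.3% and 66.7% at 10 or more, and stays between 22.4% and 27.7% in PPAR-alpha.

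A further 84 repair genes, among them replication clamp, Fanconi and checkpoint genes, were counted in the same way. Within 1 kb, 15.5% and 23.8% of them had a summit in p53 replicates 1 and 2 and 25.0% in PPAR-alpha, beside 9.21%, 11.9% and 8.8% of all genes. Within 5 kb the shares were 22.6%, 34.5% and 29.8%, beside 12.9%, 16.4% and 12.3%. PPAR-alpha thus gave the highest of the 1 kb shares here and the lowest among the 57 members, a difference that was not tested. Slx4, a nuclease scaffold gene, led both p53 lists with 15.6 and 16.4, followed by Rad23b, for the partner of XPC, with 10.7 and 14.3. Tdp1, which removes topoisomerase from DNA ends, led PPAR-alpha with 28.1, before Pcna (11.5) and Rmi1 (10.7). Windows were at hand for 66 of them in all, 7 with the NRF1 letters and 59 without. Rad23b held the letters and Slx4 did not, so the p53 scores of 10 or more were divided evenly here.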

How the data were processed

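The authors deposited 1 list of summits per ChIP library, made separately and not pooled, and the deposited score is read as a −log10 p- or q-value from the form and range of the lists, which no label states. Per the submitters' processing notes MACS2 2.1.2, Bowtie2 2.3.4.2 and Picard 2.9.0 were used, without roles or settings, and the build is named as GRCh38 for mouse tissue. Neither threshold nor control of the peak calls is stated. Positions, counted from 1, were checked against RefSeq GRCm38.p6: 49.2%, 49.0% and 42.0% of summits lay within 1 kb of a protein-coding gene end, and 6.38 to 7.82% after a shift of 50 kb. Depth is unknown, so only list sizes and scores limit the precision.

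A gene was called when a summit lay within 1 or 5 kb of either end. Counts were made with Python 3.11.15, pandas 2.3.3 and SciPy 1.17.1, and intervals are exact 95% Clopper-Pearson intervals. No count model or list test was used. The window procedure was tested on simulated data, where 200 of 200 planted genes were recovered at each window. This checks only that planted genes are found. It does not measure how often a summit is counted for a neighbouring gene. Promoter windows and strands came from the RefSeq table of GRCm38.p6. Alternatives were scores of at least 5 or 10, removal of dense runs (5 or more summits at most 10 kb apart), the nearest gene only, summits inside genes, a 20 kb window, starts only, stricter sharing and each p53 replicate left out. Members and lists were chosen with earlier results of these data known. By rule the text names every member with a summit within 5 kb with its values, the other members by name, the nearest summits of textbook p53 targets, neighbours that share a summit, and the 3 highest-scoring other repair genes of each list. Values of Xrcc6 and Lig1 and the nearest distance in mismatch repair go beyond that rule and were chosen after they were seen. Of the promoters the rule allows, that of Polh is printed whole and those of Lig4, Sprtn and Palb2 at an NRF1 match. That of Xpa, which the rule also allows, holds no NRF1 match and is not printed. Msh6 and Rnf8 were added after their values were seen.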

Additional observations from a re-analysis of the deposited data

How the results depend on the processing

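Of 145 recomputed counts, 99 stayed within 1.5 times the reported one and 46 did not. Removal of dense runs could change no member count, because no member summit lay in one. Rrm2b, alone in its group, had no summit at any setting. Both kinds of recomputed count are among the 99 and say nothing about stability. With scores of 5 or more the 1 kb counts were 7 (p53 replicate 1), 8 (replicate 2) and 5 (PPAR-alpha), beside 3.01%, 3.67% and 4.12% of all genes, and the 5 kb counts 7, 9 and 8, beside 4.19%, 5.31% and 6.07%. Base excision, end joining, homologous repair and damage signalling kept 1, 1, 5 and 1 members. With scores of 10 or more the 1 kb counts were 3, 4 and 3 and the 5 kb counts 3, 4 and 4, both p53 replicates had 3 members and all 3 lists had 2 at either window, and nucleotide excision, base excision, end joining, homologous repair and damage signalling kept 1, 0, 1, 1 and 0. With the nearest gene only, PPAR-alpha had 5 members at 1 kb and 9 at 5 kb, beside 7.4% and 9.4% of all genes, and all 3 lists had 2 at either window. With summits inside genes PPAR-alpha had 14 at 1 kb, beside 12.5%. From the transcription start only, p53 replicate 2 had 11 (19.3% of all members) and PPAR-alpha 8 (14.0%) at 5 kb, beside 12.2% and 9.05% of all genes. Only 45 members have a start, and genes without one count as having no summit in either share. Within 20 kb p53 replicate 1 had 22, beside 4381 of 21887 genes, both p53 replicates 12 and all 3 lists 9, and nucleotide excision, base excision and end joining had 7, 7 and 5. Without p53 replicate 1 or without replicate 2, the count for both p53 replicates became 15 or 12 at 1 kb and 18 or 14 at 5 kb, by construction. For all 3 lists it became 5 or 6 at 1 kb and 8 in either case at 5 kb. By route these alternatives gave 1 for mismatch, 4 and 3 for nucleotide excision, 2 and 3 for base excision, 3 and 1 for end joining, 7 and 6 for homologous repair, 4 and 3 for damage signalling and 3 for translesion synthesis. The NRF1 shares at scores of 10 or more, whose alternatives were added after seeing the data, stayed inside their intervals. Apart from the alternatives that leave out samples or summits, the cause of these moves was not tested. No paired analysis was possible because only the p53 libraries carry replicate numbers and no test compares groups.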
